A study of Mus musculus with 6 samples.

Results

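The miRNAs that lie antisense to Rtl1 in the imprinted Dlk1-Dio3 region were examined in exosomes released by mouse bone marrow-derived macrophages. They were taken as every name in the deposited count table with the stem miR-127, miR-136, miR-431, miR-433 or miR-434, on either arm of the hairpin. This gave 7 of the 707 names, from 4 hairpins: mmu-miR-431-5p, mmu-miR-431-3p, mmu-miR-433-3p, mmu-miR-127-5p, mmu-miR-127-3p, mmu-miR-136-5p and mmu-miR-136-3p, called below without the mouse prefix mmu. miR-434 and miR-433-5p were not analysed here. Small RNA was sequenced from culture supernatants of 3 Roquin-1 san:san samples and 3 wild-type (WT) samples, all of strain C57BL/6 and with no treatment or age given in the labels. Roquin-1 binds stem-loops of messenger RNAs and promotes their decay, and the sanroque (san) allele alters this protein. Whether the replicates are different mice or repeat preparations is not in the labels, and the p-values then cover only the spread among 3 samples, which could be technical.

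Rtl1 is a retrotransposon-derived gene expressed from the paternal chromosome. The maternal chromosome carries a long transcript on the opposite strand, and hairpins cut from it give miRNAs that pair without mismatch to the Rtl1 messenger RNA and guide its cleavage. The surrounding Dlk1-Dio3 region holds one of the largest groups of miRNAs in the mouse genome and is best known from placenta, embryo, muscle and brain. In RefSeq (GRCm38.p6) the 4 hairpins lay on the plus strand of chromosome 12, within 4942 bases, in the order Mir431 (chr12:109590447-109590537), Mir433 (chr12:109591715-109591838), Mir127 (chr12:109592846-109592915) and Mir136 (chr12:109595327-109595388). In the GENCODE annotation of the same build, all 7 mature sequences lay inside the coding exon of Rtl1, on the other strand. The deposited table itself carried no coordinates.

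The mature sequences, all 7 matched in RefSeq by name, are shown because they separate the members. Capitals mark the seed, bases 2 to 8, which selects targets.
miR-431-5p: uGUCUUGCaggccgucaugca
miR-431-3p: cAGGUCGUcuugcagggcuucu
miR-433-3p: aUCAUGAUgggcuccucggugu
miR-127-5p: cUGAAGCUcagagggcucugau
miR-127-3p: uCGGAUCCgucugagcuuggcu
miR-136-5p: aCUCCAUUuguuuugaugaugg
miR-136-3p: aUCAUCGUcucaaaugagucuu

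The 7 seeds were all different, and none was shared with another of the 573 names in the table that matched a RefSeq mature sequence. GC content ran from 36.4% in both miR-136 arms to 59.1% in miR-431-3p and miR-127-3p. The reverse complement of each of the 7 was found without mismatch in the GENCODE Rtl1 transcript. The sites of the most counted members are given in the sense of Rtl1, with the stretch facing the seed in capitals.
Rtl1 site of miR-127-3p: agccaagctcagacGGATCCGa
Rtl1 site of miR-136-3p: aagactcatttgagACGATGAt

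The libraries were shallow, and depth followed the genotype. The san:san libraries held 126098 to 185901 miRNA counts, against 12447 to 28884 in WT libraries, so depth and genotype cannot be told apart. A single count was worth 6.31 to 10.2 CPM in san:san and 27.8 to 69.5 CPM in WT, where CPM is counts relative to a fixed library total after TMM scaling in edgeR. Across all miRNAs, 254 names passed the filter on low counts, and 163 of these (64.2%) differed at an adjusted p under 0.05, 88 of them higher and 75 lower in san:san. With total counts as library sizes the split was 49 higher and 101 lower. Of 7 macrophage and myeloid marker names fixed for the check of the cell label, all had counts in both genotypes. Their summed share was 10.4% to 12% of san:san counts and 5.23% to 6.19% of WT counts, with miR-142a-3p and miR-21a-5p the most abundant. The 5 erythroid names, led by miR-486a-5p and miR-486b-5p, held 15.6% to 17.9% of san:san counts and 3.84% to 6.25% of WT counts. The rows of those 2 names were identical, and with identical rows counted once the list held 10.97% to 12.76% in san:san and 2.73% to 4.73% in WT. The 7 stromal names, led by miR-199a-3p and miR-214-3p, held 1.09% to 1.17% and 0.964% to 1.58%, and none of the names on the 3 lists was at 0 in a genotype. The part of these marker shares in the results below was not tested. In such bulk libraries of exosome RNA, fewer cells of a type cannot be told apart from less exosome RNA per cell.

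The Rtl1 antisense miRNAs were a small part of the exosome miRNAs and a larger one in san:san. Summed over the 7 names, they had 330, 300 and 265 counts in san:san libraries, against 9, 22 and 20 in WT libraries. This was 0.178%, 0.187% and 0.210% of all counts in san:san (exact 95% binomial intervals 0.159% to 0.198%, 0.166% to 0.209% and 0.186% to 0.237%). In WT it was 0.0723%, 0.0762% and 0.0919% (0.0331% to 0.137%, 0.0477% to 0.115% and 0.0562% to 0.142%). The shares did not overlap between genotypes, nor did their counting intervals. Scaled to the total of the shallowest library, 12447 counts, the san:san libraries would hold 22.1, 23.2 and 26.2 counts of these miRNAs, against 9, 9.48 and 11.4 in WT. Intervals of this kind cover counting error only, since reads without molecular identifiers are not independent molecules.

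Of the 7 names, 4 passed the filter, and 3 of them (miR-127-3p, miR-136-3p and miR-433-3p) rose in san:san in edgeR's quasi-likelihood test with Benjamini-Hochberg adjustment over all 254 names. None fell, and miR-136-5p did not pass. Over all tested names 34.6% rose and 29.5% fell. The median log2 fold change of the 4 was 1.83, against 0.30 over all tested names. The values of the same 3 did not overlap between genotypes, which 39.8% of all tested names also showed with higher san:san libraries. miR-433-3p reached the filter through its san:san libraries, since only 1 WT library passed the level of 129 CPM, taken for the filter without TMM scaling. Its place among the tested names was thus tied to being high in san:san. miR-127-3p and miR-136-3p passed that level in all 3 WT libraries as well, but on few counts (4, 7 and 5 for miR-127-3p, 2, 5 and 9 for miR-136-3p).

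**Figure D1:**
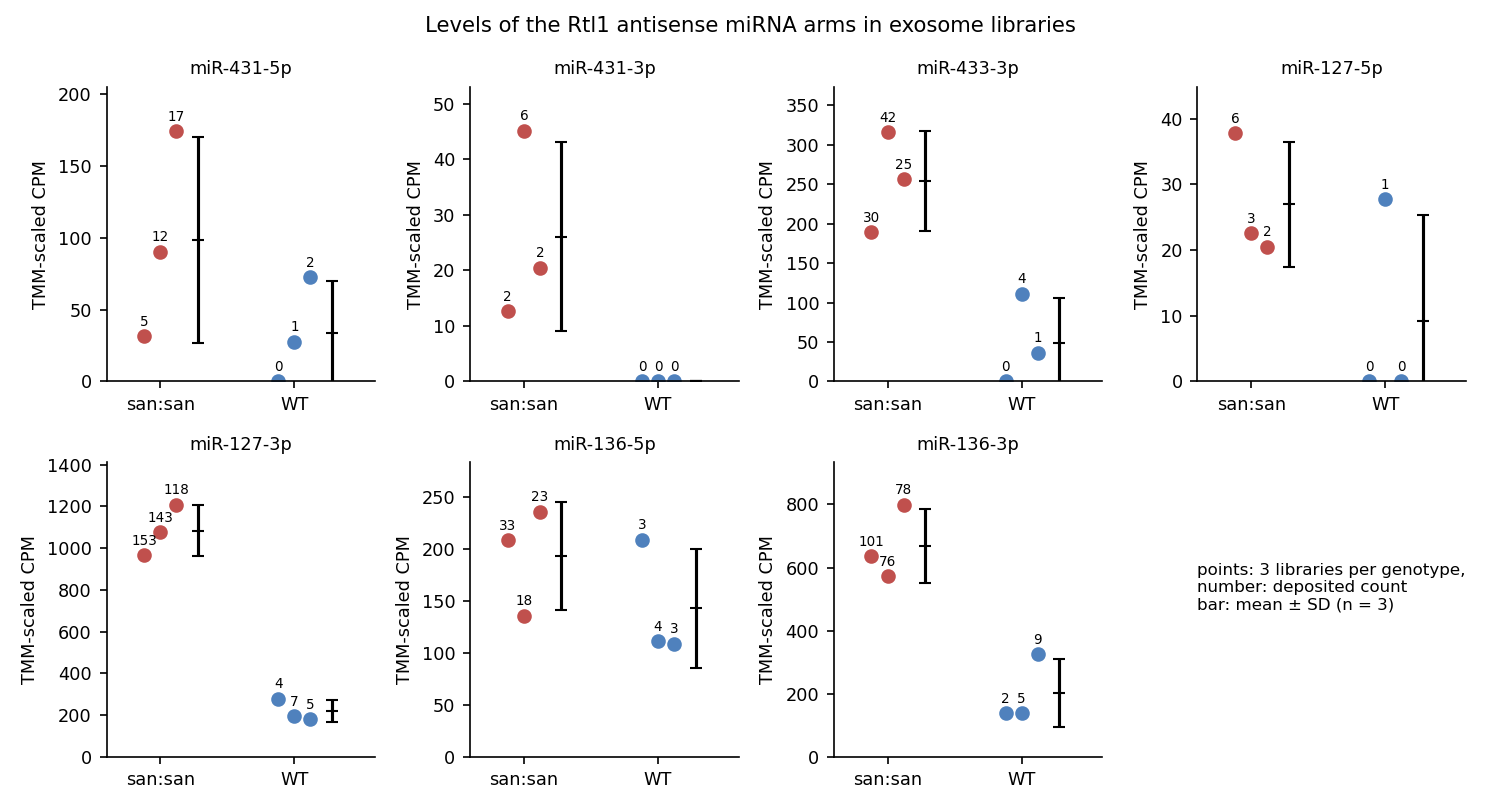
TMM-scaled CPM (vertical axes, linear from 0) of the 7 arms in each of 3 san:san and 3 WT libraries, in genomic order, with the deposited count above each point and the mean ± SD beside it, cut off at 0. The miR-127-3p, miR-136-3p and miR-433-3p points of the genotypes do not overlap, while the miR-136-5p, miR-431-5p and miR-127-5p points do.

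miR-127-3p, which represses the transcription factor BCL6 in human cells, was the most abundant of the 7 and ranked 134th among all 707 names by mean CPM. It had 153, 143 and 118 counts in san:san libraries, against 4, 7 and 5 in WT libraries. On the CPM scale these were 965, 1076 and 1209 in san:san, against 278, 194 and 181 in WT, so the lowest san:san library stood well above the highest WT library. The means were 1083 ± 122 CPM in san:san and 218 ± 52.7 CPM in WT (SD, n = 3 each). The fold change was 5.20 (log2 2.38 ± 0.32, SE, edgeR adjusted p = 2.12e-05), the 11th highest of the 254. The WT side of this value rests on 16 counts in all, and the ratio of summed scaled counts, 5.19, had an exact 95% counting interval of 3.16 to 9.16.

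The other arm of this hairpin, miR-127-5p, was rare in both genotypes. It had 6, 3 and 2 counts in san:san and 0, 1 and 0 counts in WT, and was below the filter (with no filter, log2 1.17, edgeR adjusted p = 0.604). The ratio of summed scaled counts was 2.21, with a 95% counting interval of 0.321 to 94.9 that covers no difference. Of the counts of both arms, 11 of 425 in san:san (2.59%, exact 95% interval 1.30% to 4.58%) and 1 of 17 in WT (5.88%, 0.149% to 28.7%) were miR-127-5p. These shares were not tested against each other. The hairpins of miR-127 and miR-136 are shown with both arms in capitals, because they give the 2 members with the highest mean levels.
Mir127 hairpin: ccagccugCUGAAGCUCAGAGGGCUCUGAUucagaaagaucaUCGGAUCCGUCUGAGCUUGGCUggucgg
Mir136 hairpin: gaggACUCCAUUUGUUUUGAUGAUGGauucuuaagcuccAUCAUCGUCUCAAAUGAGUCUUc

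The 3p arm of miR-136 passed the test and the 5p arm did not. miR-136-3p had 101, 76 and 78 counts in san:san libraries and 2, 5 and 9 in WT libraries. Its levels were 637, 572 and 799 CPM in san:san and 139, 139 and 326 CPM in WT. Every san:san library was above every WT library, although WT replicate 3 lay far above the other WT libraries. miR-136-3p averaged 669 ± 117 CPM in san:san and 201 ± 108 CPM in WT (SD, n = 3 each) and rose 3.22-fold (log2 1.69 ± 0.37, edgeR adjusted p = 0.00126). Without a single library its log2 value lay between 1.25 and 2.24, past the threshold each time.

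miR-136-5p had 33, 18 and 23 counts in san:san and 3, 4 and 3 in WT. These were 208, 135 and 236 CPM in san:san and 209, 111 and 109 CPM in WT, so WT replicate 1 reached the middle of the san:san libraries. The means, 193 ± 51.8 CPM in san:san and 143 ± 57.0 CPM in WT, did not differ beyond the spread between replicates (log2 0.56 ± 0.53, edgeR adjusted p = 0.363). With total counts as library sizes its value was -0.03 (adjusted p = 0.974). The counting interval of its summed ratio, 0.763 to 3.22, leaves room for no difference and for one as large as that of its partner arm.

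The share of miR-136-5p in the counts of both arms does not depend on how libraries are scaled. It was 24.6%, 19.1% and 22.8% in san:san libraries (33 of 134, 18 of 94 and 23 of 101 counts). In WT libraries it was 60.0%, 44.4% and 25.0% (3 of 5, 4 of 9 and 3 of 12 counts). The shares averaged 22.2% ± 2.79 in san:san and 43.2% ± 17.5 in WT (SD, n = 3 each), a difference of -21.0 percentage points without overlap, for which the two-sided exact permutation p was 0.1, the smallest that 3 against 3 allows. The exact 95% intervals of the WT libraries, the narrowest of which ran from 5.49% to 57.2%, all covered the san:san values. Pooled over libraries the share was 22.5% (18.1% to 27.4%) in san:san and 38.5% (20.2% to 59.4%) in WT, with intervals that overlap. With 3 against 3 libraries and so few WT counts, whether arm use differed could not be decided.

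**Figure D2:**
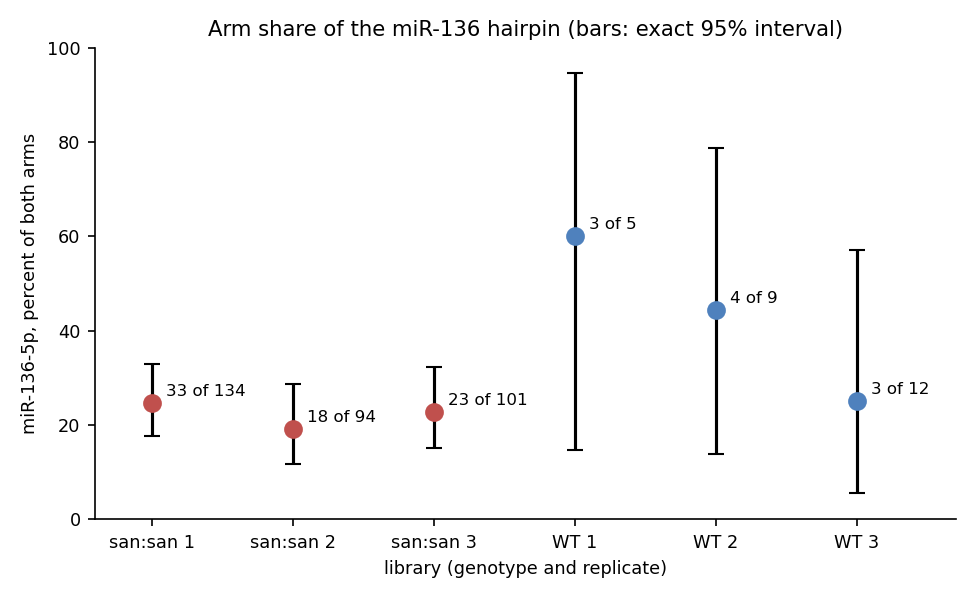
Share of miR-136-5p in the summed counts of both miR-136 arms, in percent, for each san:san and WT library, with exact 95% binomial intervals and the counts beside each point. The san:san points sit between 19.1% and 24.6% with narrow intervals, and the WT points between 25.0% and 60.0% with intervals that reach down over them.

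miR-433-3p, which represses the deacetylase HDAC6 in human cells, had 30, 42 and 25 counts in san:san libraries and 0, 4 and 1 in WT libraries. The levels were 189, 316 and 256 CPM in san:san and 0, 111 and 36.2 CPM in WT. The genotypes did not overlap, but a count of 0 in WT replicate 1 allows up to 209 CPM (3 counts), above the lowest san:san library. The means were 254 ± 63.4 CPM in san:san and 49.1 ± 56.6 CPM in WT (SD, n = 3 each), a 3.92-fold rise (log2 1.97 ± 0.67, edgeR adjusted p = 0.0198). The call was lost with total counts (log2 1.38, adjusted p = 0.104), in DESeq2 (1.80, 0.0520) and without WT replicate 3 (1.67, 0.0716). Without WT replicate 2, which held 4 of the 5 WT counts, its log2 value was 3.23 (adjusted p = 0.0291), and without any 1 san:san library it fell below the filter.

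miR-431, which in mouse sensory neurons represses the Wnt antagonist Kremen1, gave too few counts to pass the filter on either arm. miR-431-5p had 5, 12 and 17 counts in san:san libraries and 0, 1 and 2 in WT libraries, or 31.5, 90.3 and 174 CPM in san:san and 0, 27.8 and 72.4 CPM in WT. The libraries overlapped, san:san replicate 1 lying below WT replicate 3, and the summed ratio of 2.27 had a 95% counting interval of 0.715 to 11.6. Where other settings tested it, it did not pass: the edgeR adjusted p was 0.268 with no filter (log2 1.34), 0.475 without WT replicate 1 (0.83) and 0.616 without WT replicate 2 (0.82). miR-431-3p had 2, 6 and 2 counts in san:san and 0 in each WT library. Its summed san:san level, 25.7 CPM, was below the 38.5 CPM that 0 counts over the WT libraries together allow, so no fold is given, and with no filter it did not pass (edgeR adjusted p = 0.209). Unlike for miR-127 and miR-136, the 5p arm was the more counted one, with 34 of 44 counts in san:san (77.3%, exact 95% interval 62.2% to 88.5%) and all 3 counts in WT, a pair of shares that was not tested.

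The make-up of the members was compared as each name's percent of the 7 names' summed counts in its library, for the 3 names counted in every library. miR-127-3p made up 46.4%, 47.7% and 44.5% of the summed member counts in san:san libraries, against 44.4%, 31.8% and 25.0% in WT libraries. The gap between the lowest san:san and the highest WT library was thus very small. Its mean share was 46.2% ± 1.58 in san:san and 33.8% ± 9.87 in WT (two-sided exact permutation p = 0.1, the smallest possible, or 0.15 adjusted over the 3 names). miR-136-5p made up 10%, 6.00% and 8.68% in san:san and 33.3%, 18.2% and 15.0% in WT, also without overlap (exact permutation p = 0.1, adjusted 0.15). miR-136-3p made up 30.6%, 25.3% and 29.4% in san:san and 22.2%, 22.7% and 45.0% in WT, with overlap (exact permutation p = 1). None of the 3 passed, and with 3 against 3 libraries none could.

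**Figure D3:**
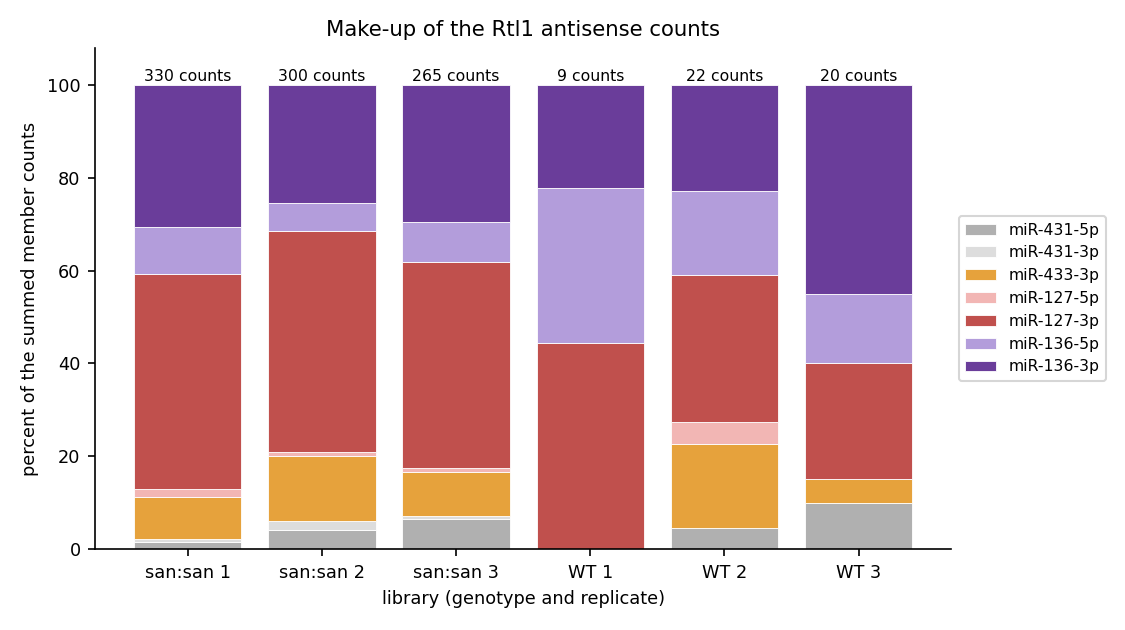
Stacked percent of each arm in the summed Rtl1 antisense counts of a library, 3 san:san libraries left and 3 WT libraries right, with the summed count above each bar. miR-127-3p fills 44.5% to 47.7% of the san:san bars and 25.0% to 44.4% of the WT bars, which rest on 9 to 22 counts.

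The scaling of the libraries shifted all members together with the bulk of miRNAs. The median log2 fold change of all tested names was 0.30 with TMM, 0.20 with TMMwsp, 0.04 with RLE factors, 0.05 with library sizes that omit the top 5 miRNAs, 0.02 in DESeq2 and -0.29 with total counts. Relative to that median, miR-127-3p was higher by 2.08 to 2.11, miR-136-3p by 1.38 to 1.42, miR-433-3p by 1.67 to 1.78 and miR-136-5p by 0.26 to 0.27 on the log2 scale. A change of scaling moves every name by nearly the same amount, so these distances could hardly differ between settings. miR-127-3p and miR-136-3p passed the threshold under each of these 6 scalings (highest adjusted p, 2.11e-04 for miR-127-3p and 0.0209 for miR-136-3p, both with total counts).

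**Figure D4:**
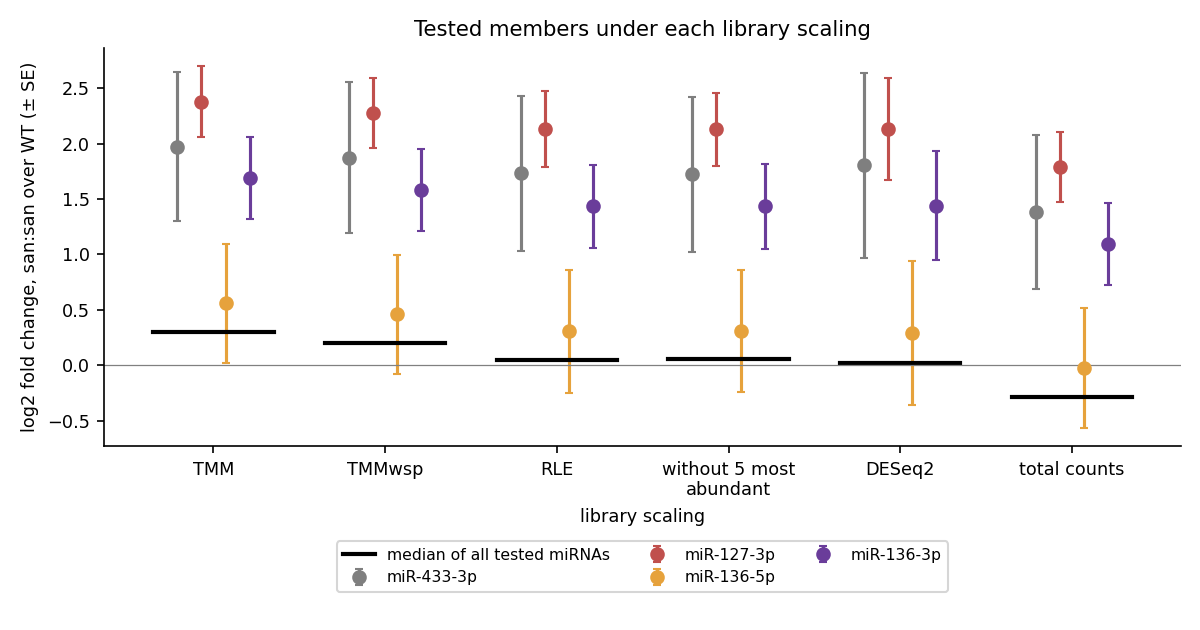
Log2 fold change of san:san over WT (vertical axis, ± SE) for the 4 tested members under 6 library scalings, with a black line at the median of all tested miRNAs under each. The members move down with the black line, from 0.30 with TMM to -0.29 with total counts, and miR-136-5p alone crosses 0, at -0.03.

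Among the neighbours of these hairpins in the Dlk1-Dio3 region, 19 names rose in san:san. They belong to a list of 56 other names of the region, chosen with earlier results of these data known, of which 29 passed the filter. In edgeR 19 of the 29 rose (65.5%), 0 fell (also 0 at an unadjusted p under 0.05) and 10 did not pass. Of all tested names, 34.6% rose and 29.5% fell. Of the 29, 16 reached the level of the filter in all 3 WT libraries, and 14 of these rose. Over all names that reached it in all 3, 70 of 205 rose. Another 12 reached it in 1 or 2 WT libraries, and 4 of these rose, beside 14 of 45 over all such names. The remaining 1, miR-654-3p, reached it in none and rose, as did all 4 such tested names. The place of these 13 among the tested names was thus tied to their san:san libraries. The raised names include miR-299a-5p and miR-299b-5p, whose counts were identical, and with identical rows merged 18 of 28 rose. Their median log2 fold change was 1.19. With total counts 7 of 29 rose (24.1%, against 19.3% of all tested names), in DESeq2 9 of 29 (31.0%, against 25.2%) and without WT replicate 2 8 of 32 (25.0%, against 23.4%), with 0 lower each time. Under these 3 settings the raised share of the neighbours was near that of all names. The lower names, 0 among the neighbours, numbered 101 of 254, 82 of 254 and 65 of 290 over all tested names. The summed share of these neighbours was 2.01%, 1.95% and 1.92% of all counts in san:san and 1.21%, 1.14% and 1.32% in WT.

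The neighbours with the smallest adjusted p included miR-409-3p, miR-487b-3p and miR-376c-5p. miR-409-3p, the most abundant of them, averaged 4050 ± 413 CPM in san:san and 842 ± 96.4 CPM in WT (SD, n = 3 each), with a log2 fold change of 2.27 ± 0.23 (edgeR adjusted p = 1.51e-06), close in size to miR-127-3p. miR-487b-3p stood at log2 1.78 ± 0.25 (2.80e-05) and miR-376c-5p at 1.62 ± 0.25 (6.64e-05). miR-381-3p (1.65 ± 0.36, 0.00120) and miR-495-3p (1.66 ± 0.37, 0.00135) were close to miR-136-3p. miR-654-3p had 39, 30 and 32 counts in san:san and 0, 1 and 0 in WT, a ratio of 20.2 with a 95% counting interval of 3.55 to 808. miR-382-5p, also among the most abundant of the region, did not pass (0.44 ± 0.27, adjusted p = 0.171).

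**Figure D5:**
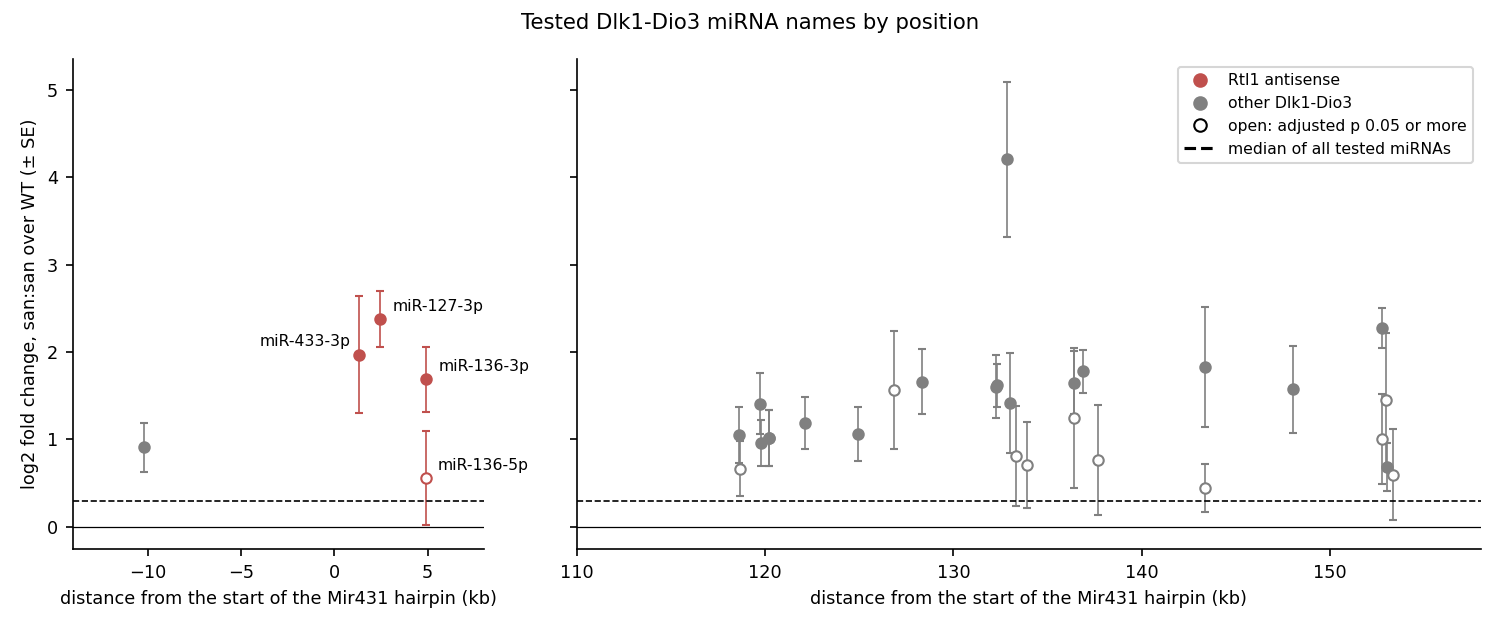
Log2 fold change of san:san over WT (vertical axis, ± SE) of the 4 tested Rtl1 antisense names (red) and 29 tested neighbours (grey) by distance in kb from the start of the Mir431 hairpin, in 2 stretches of the region. All points lie above 0 with TMM scaling (with total counts 1 red and 1 grey point would lie below 0), filled ones passed an adjusted p of 0.05, and the dashed line is the median of all tested miRNAs, 0.30.

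Set against their neighbours, the Rtl1 antisense names held 8.11%, 8.72% and 9.88% of the region's counts in san:san libraries, against 5.66%, 6.27% and 6.51% in WT libraries. The shares did not overlap, but their exact 95% intervals did: that of WT replicate 3 reached from 4.02% to 9.88%, and that of san:san replicate 1 from 7.29% to 9%. miR-127-3p had 4.09, 4.56 and 4.88 counts per 100 counts of the other names of the region in san:san, against 2.67, 2.13 and 1.74 in WT (two-sided exact permutation p = 0.1, adjusted 0.2 over the 4 tested members). miR-136-5p had 0.883, 0.573 and 0.952 in san:san and 2, 1.22 and 1.05 in WT (exact permutation p = 0.1, adjusted 0.2). For miR-136-3p and miR-433-3p the libraries overlapped (exact permutation p = 0.3 each, adjusted 0.3). None of these 4 single-member differences passed the threshold, and with 3 against 3 libraries none could. The summed share of the members in the region was not tested.

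Likeness to miR-127-3p was measured as Pearson's r of log2(CPM + 10) over the 6 libraries. Since the libraries fall into 2 genotypes of unlike depth, r mostly reflects the step between them and is given as a description. The 5 non-member names most like it were miR-505-3p (r = 0.998), miR-342-3p (0.995), miR-191-5p (0.995), miR-151-5p (0.993) and miR-487b-3p (0.992), the last of which belongs to the same region. Among the members r was 0.861 for miR-136-3p, 0.702 for miR-433-3p and 0.618 for miR-136-5p. Of the 250 tested non-member names, 59 had a higher r than miR-136-3p.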

How the data were processed

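Exosome small RNA of 3 Roquin-1 san:san and 3 WT samples was analysed, with groups and replicate numbers from the sample titles. Per the labels, RNA was taken with Trizol, miRNA libraries were made by Illumina procedures, and an mRNA kit is named too. The submitters' processing notes name mm9 as the build. The aligner, the trimming, the miRNA annotation and the handling of reads that match several names were not given in the sources used here. Whole-number counts per mature miRNA, as the authors deposited them, were used without change. The authors' per-sample scaled values were not used.

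All 6 libraries were fitted in R 4.3.3 with the quasi-likelihood test of edgeR 4.0.16, using filterByExpr (minimum count 10), TMM factors, robust dispersions and Benjamini-Hochberg adjustment over the 254 names kept, tested on simulated data. CPM are TMM-scaled. Alternatives used other scalings, filters, DESeq2 1.42.0, merged identical rows, thinning, a replicate block and omission of each library. Members, lists and tests were chosen with earlier results of these data known, and the ratios to other names of the region were added after values were seen. Besides the members, the names given were those neighbours with the 6 smallest adjusted p or the 3 highest mean CPM, the 5 most like miR-127-3p, and the 2 most abundant of each marker list. No member shared its row of counts with another name. Libraries held 12447 to 185901 counts, so precision in WT was limited by counting.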

Additional observations from a re-analysis of the deposited data

How the results depend on the processing

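Depth limited what could be tested: in libraries thinned to 12447 counts miR-127-3p reached the filter in 5 of 20 draws (higher in all 5, log2 1.91 to 2.55, highest adjusted p 0.00208) and the other 6 members in 0, and no member had at least 5 counts in every library, so neither setting gave a count of raised members. Where members could be tested, 2 or 3 rose and 0 fell in all settings, with 2 under total counts, DESeq2, without WT replicate 3 and without each san:san library (range 2 to 3 with a library left out). The members tested numbered only 2 without any 1 san:san library and 7 with no filter. Over all names the raised share in these settings ran from 14.4% (no filter) to 38.7% (without san:san replicate 2). miR-127-3p (log2 1.79 to 2.51) and miR-136-3p (1.09 to 2.24) passed in all 14 alternatives on unthinned libraries that tested them. miR-433-3p passed in 8 of 11. miR-136-5p turned to -0.027 with total counts.

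Over all miRNAs 163 differed, against 98 with at least 5 counts in every library and 83 in thinned libraries, both of which test fewer names, and 133 to 175 with a library left out. The 19 raised neighbours of 29 tested (65.5%, against 34.6% of all names) became 7 with total counts (24.1%, against 19.3%), 12 with library sizes that omit the top 5 miRNAs (41.4%, against 28.7%) and 9 in DESeq2 (31.0%, against 25.2%). With at least 5 counts in every library 8 of only 10 tested rose (80.0%, against 37.0%), and in thinned libraries 3 of 6, against 29.8% of all names. The range was 8 to 19 when a library was left out, with 8 of 32 without WT replicate 2 (25.0%, against 23.4%). Without WT replicate 1, 19 of 32 rose (59.4%, against 30.7%), and without WT replicate 3, 17 of 32 (53.1%, against 29.6%). Without each san:san library in turn only 17 were tested, and 14, 14 and 15 rose (82.4% to 88.2%, against 36.2% to 38.7%). Shares of the summed member counts were also compared with a library left out, as san:san minus WT. The difference was 8.05 to 17.8 percentage points for miR-127-3p and -17.5 to -8.36 for miR-136-5p. For miR-136-3p it was -5.41 to 5.98, turning positive without WT replicate 3 (5.98) or san:san replicate 2 (0.037). The miR-136 arm difference with a library left out was -30.0 to -12.5 points. The most like names were the same 5 with pseudocounts of 1 and 50. Ratios of the low names with total counts, an alternative chosen after seeing the data, were 1.51 for miR-431-5p and 1.47 for miR-127-5p. With the replicate number as a block 161 miRNAs and 3 members were called. The labels do not say that these numbers pair the samples. Same-numbered libraries had r of deviations of 0.0897, -0.0608 and 0.24, against -0.193 to 0.142 for different numbers. With 3 samples per genotype these values cannot decide whether the samples are paired.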
